A study of Mus musculus with 6 samples.

Results

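The digestive enzymes, zymogen granule proteins, regenerating (REG) proteins and transcription factors of the pancreatic acinar cell were examined in RNA of isolated mouse islets. The genes came from a list of 39 exocrine symbols, and 34 of them were measured, out of 19937 genes that the array represents by a probe set carrying a single symbol. Each gene was read from the brightest of its single-symbol probe sets over the 6 arrays. The control genotype was Ins2-rtTA, in which the insulin 2 promoter of the β cell makes the doxycycline-dependent activator rtTA. Sox17-GOF mice had tetO-Sox17 beside Ins2-rtTA, so that doxycycline turned on the HMG box factor SOX17. All mice were 16 weeks old and, by the methods, male, and were given doxycycline in food and water for their last 24 hours. They came from an outbred stock crossed back to C57BL/6 for at least 3 generations. There were 3 biological replicates per genotype, and whether a replicate was 1 mouse or several is not given in the sources used here. Islets were freed by collagenase and enriched on a Ficoll gradient and by sedimentation. The values are log2 signals, and signals of different probe sets are not comparable as amounts of RNA.

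The exocrine pancreas surrounds the islets, and its acinar cells make digestive proenzymes, pack them into zymogen granules and release them into the ducts. Acinar identity rests on the PTF1 complex, in which PTF1A and a common bHLH partner join RBPJL on a bipartite DNA site, and on MIST1 (Bhlha15), which shapes the secretory apparatus. REG proteins are small secreted C-type lectins of acinar cells, and several of them rise in pancreatitis and under cytokines that act through STAT3. Islet preparations usually hold some acinar tissue, and in whole-islet RNA fewer acinar cells and less acinar RNA per cell cannot be told apart.

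The promoters of these genes show the sequence that most of them share. RefSeq promoters on GRCm38.p6, each running from 250 bases before to 50 bases after the start of the gene, were at hand for 28 of the 34 measured genes. The 5 below were chosen to show an elastase promoter with closely spaced elements, one with elements far apart, the promoter of the only listed gene that differed between the genotypes, and those of a pair of neighbouring REG genes that behaved differently across the arrays. All are written 5′ to 3′ on the strand of the gene, with capitals on CACCTG (the E box of the PTF1 site), TTTCCC (its TC box), TTCNNNGAA (the palindrome that STAT factors bind) and TATAAA where the gene has them, on either strand. They lie at chr15:100687871-100688170 on the minus strand (Cela1), chr4:141825956-141826255 on the minus strand (Cela2a), chr5:144190036-144190335 on the plus strand (Bhlha15), chr6:78370635-78370934 on the plus strand (Reg3b) and chr6:78378816-78379115 on the minus strand (Reg3d).
Cela1: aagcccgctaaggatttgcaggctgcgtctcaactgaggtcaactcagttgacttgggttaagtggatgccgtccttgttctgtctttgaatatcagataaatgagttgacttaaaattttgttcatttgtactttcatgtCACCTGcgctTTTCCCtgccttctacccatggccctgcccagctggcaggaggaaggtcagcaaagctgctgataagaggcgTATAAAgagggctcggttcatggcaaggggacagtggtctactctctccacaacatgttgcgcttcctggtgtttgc
Cela2a: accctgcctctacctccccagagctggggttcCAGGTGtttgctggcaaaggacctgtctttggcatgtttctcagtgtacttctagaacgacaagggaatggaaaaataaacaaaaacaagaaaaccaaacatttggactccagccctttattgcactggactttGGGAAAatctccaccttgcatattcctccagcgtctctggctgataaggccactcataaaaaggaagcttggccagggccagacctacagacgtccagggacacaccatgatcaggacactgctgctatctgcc
Bhlha15: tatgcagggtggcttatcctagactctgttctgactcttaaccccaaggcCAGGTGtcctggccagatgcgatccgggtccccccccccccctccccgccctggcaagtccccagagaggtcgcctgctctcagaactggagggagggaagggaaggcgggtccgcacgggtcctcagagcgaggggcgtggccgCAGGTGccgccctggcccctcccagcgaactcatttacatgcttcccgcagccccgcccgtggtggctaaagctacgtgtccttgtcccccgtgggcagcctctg
Reg3b: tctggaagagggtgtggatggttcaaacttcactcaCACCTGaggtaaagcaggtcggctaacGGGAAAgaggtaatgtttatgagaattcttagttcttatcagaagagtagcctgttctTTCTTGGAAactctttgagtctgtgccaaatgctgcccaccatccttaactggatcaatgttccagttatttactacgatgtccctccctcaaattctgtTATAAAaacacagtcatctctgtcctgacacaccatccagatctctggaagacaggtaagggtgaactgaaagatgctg
Reg3d: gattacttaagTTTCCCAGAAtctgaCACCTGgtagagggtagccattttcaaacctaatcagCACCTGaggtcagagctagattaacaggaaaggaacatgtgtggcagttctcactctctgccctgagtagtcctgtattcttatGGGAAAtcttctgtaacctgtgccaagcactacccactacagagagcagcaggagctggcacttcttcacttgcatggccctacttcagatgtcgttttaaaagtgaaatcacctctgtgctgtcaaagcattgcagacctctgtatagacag

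The E box and the TC box of the Cela1 promoter started 10 bases apart, and those of Cela2a 134 bases apart. The promoter of Bhlha15 held 2 E boxes and no TC box. In Reg3b the nearest such pair started 27 bases apart and in Reg3d 15 bases apart, and 1 TC box of Reg3d overlapped the STAT palindrome. CACCTG was found on either strand in 17 of the 28 promoters (60.7%), against 20.03% of all 27025 promoters of the same length. TTTCCC was found in 12 of 28 (42.9%), against 25.2% of all. Both stood in 7 of 28 (25.0%), against 4.88% of all, and TATAAA in 12 of 28 (42.9%), against 14.2% of all. TTCNNNGAA was found in 3 of 28 (10.7%) against 8.47% of all, and 2 of those 3 were the REG promoters printed above. The promoters of Reg1, Reg2, Reg3a and Reg3g did not hold it. These are matches of letters, and no binding was measured.

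The arrays carried the labelled tissue and the induced gene. Islet hormone signals stood near the upper end of the scale on every array, with Ins2 between 13.02 and 13.12. Sox17 read 5.50, 5.72 and 5.71 in control replicates 1, 2 and 3 and 6.35, 6.22 and 6.36 in the Sox17-GOF replicates, with no overlap. The difference was 0.67 on the log2 scale (SE 0.09; adjusted p = 0.00876 by limma), and an exact two-sided permutation test gave p = 0.1, the smallest that 3 against 3 allows. Of the 22961 probe sets with a symbol, 1133 differed between the genotypes at an adjusted p under 0.05 (4.93%), 600 of them higher (2.61%) and 533 lower (2.32%) in Sox17-GOF islets.

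Of the 34 measured exocrine genes, 1 differed between the genotypes at that threshold, and it was lower in Sox17-GOF islets (Bhlha15). The other 33 did not pass, with adjusted p-values from 0.721 to 0.995 by limma. One gene, the same Bhlha15, had no overlap between the groups, a property of 24.9% of all named probe sets. The median log2 fold change of the 34 genes was -0.08, beside -0.01 over all named probe sets, and 25 of the genes were below 0 and 9 above it. That split rested on single arrays. Without Sox17-GOF replicate 1, 32 of the 34 fold changes were above 0 and the median was 0.27. Without Sox17-GOF replicate 3, all 34 were below 0 and the median was -0.38. In neither case did any gene other than Bhlha15 pass the threshold, and without Sox17-GOF replicate 1 no listed gene passed.

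**Figure D1:**
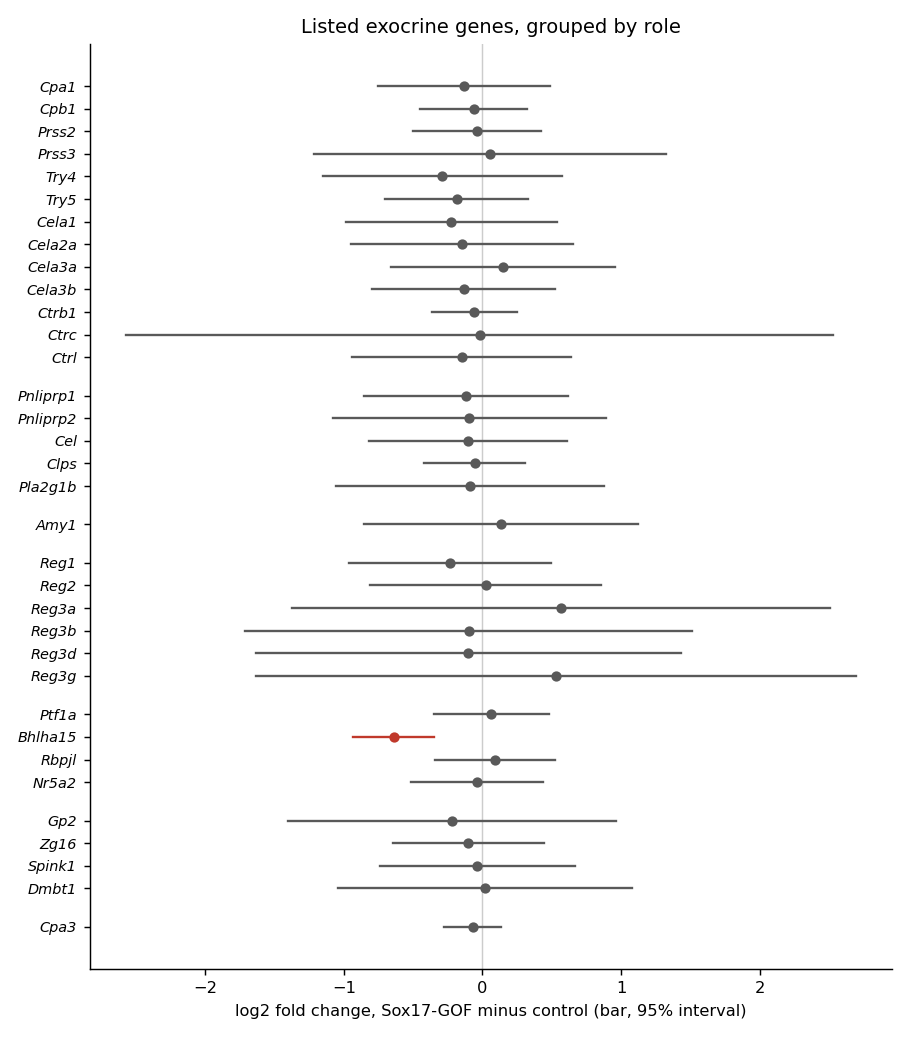
Log2 fold change of each measured exocrine gene, Sox17-GOF minus control, with its 95% interval from limma (n = 3 against 3), grouped by role from proteases at the top through lipid-digesting enzymes, amylase, REG proteins, transcription factors and granule proteins to Cpa3. Bhlha15, in red, is the only gene past the adjusted threshold, and the intervals of Ctrc and the Reg3 genes are the widest.

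What the enzymes shared was a pattern over the 6 arrays. The brightest, Ctrb1 (chymotrypsinogen B), read 13.81, 13.71 and 13.73 in the control replicates and 13.39, 13.79 and 13.89 in Sox17-GOF replicates 1, 2 and 3. Cpb1, which encodes carboxypeptidase B, read 13.37, 13.28 and 13.32 in controls and 12.85, 13.42 and 13.51 in Sox17-GOF. Cela3b, an elastase, read 13.41, 13.02 and 13.05 against 12.35, 13.16 and 13.57. In each of these 3 genes the lowest and the highest of the 6 arrays were both Sox17-GOF arrays, replicate 1 and replicate 3, so that the controls lay inside the range of the other genotype.

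The other 3 of the 6 brightest enzymes followed. Clps (colipase, the cofactor of pancreatic lipase) read 13.12, 13.03 and 13.03 in controls and 12.63, 13.14 and 13.25 in Sox17-GOF. Prss2 (a trypsinogen) read 13.08, 12.96 and 13.01 against 12.48, 13.11 and 13.33. Cela1, the elastase whose promoter is printed above, read 13.21, 12.81 and 12.85 against 11.93, 12.92 and 13.35. Again Sox17-GOF replicate 1 was the lowest array and replicate 3 the highest for all 3 genes. Between the genotypes Cela1 differed by -0.22 (SE 0.33; adjusted p = 0.781 by limma), with a 95% interval from -0.99 to 0.54, and Ctrb1 by -0.06, with an interval from -0.36 to 0.25. Without Sox17-GOF replicate 1 the fold change of Cela1 was 0.18 and without replicate 3 it was -0.53.

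The pattern was summarised as the median, over the 18 measured core enzymes (proteases, lipid-digesting enzymes and colipase), of each gene's log2 signal minus its mean over the 6 arrays. It stood at 0.27, -0.04 and 0.01 in control replicates 1, 2 and 3 and at -0.79, 0.12 and 0.49 in Sox17-GOF replicates 1, 2 and 3. The group means were 0.08 ± 0.16 (SD, n = 3) in controls and -0.06 ± 0.66 (SD, n = 3) in Sox17-GOF, so the genotypes differed by less than the spread inside the Sox17-GOF group. In this median Sox17-GOF replicates 1 and 3 were 1.28 apart, a 2.42-fold difference within 1 genotype. Single core enzymes differed in size between the same 2 arrays, with 0.50 for Ctrb1 and 1.84 for Pnliprp2. Sox17-GOF replicate 1 was the lowest array for 17 of the 18 core enzymes and for 30 of the 34 measured genes, and replicate 3 the highest for 15 of 18 and for 29 of 34. The log2 of the summed signal of the 18 core enzymes ran from 16.68 to 16.96 in controls and from 16.06 to 17.13 in Sox17-GOF. That of the 7 islet endocrine genes ran from 15.93 to 15.98 and from 15.79 to 15.90, a sum made mostly of hormone probe sets near the top of the scale. The less bright Chga (chromogranin A) and Pdx1 (a β cell transcription factor) swung by 0.55 and 0.70. Both were lowest in Sox17-GOF replicate 3, the array on which most core enzymes were highest. In Sox17-GOF replicates 1, 2 and 3 Chga read 12.76, 12.60 and 12.49, and Pdx1 read 10.50, 10.46 and 10.34. The swings of both genes include the difference between the genotypes, -0.35 for Chga and -0.47 for Pdx1, with no overlap between the groups in either gene. Inside the Sox17-GOF group the SD was 0.14 for Chga and 0.08 for Pdx1 (n = 3).

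**Figure D2:**
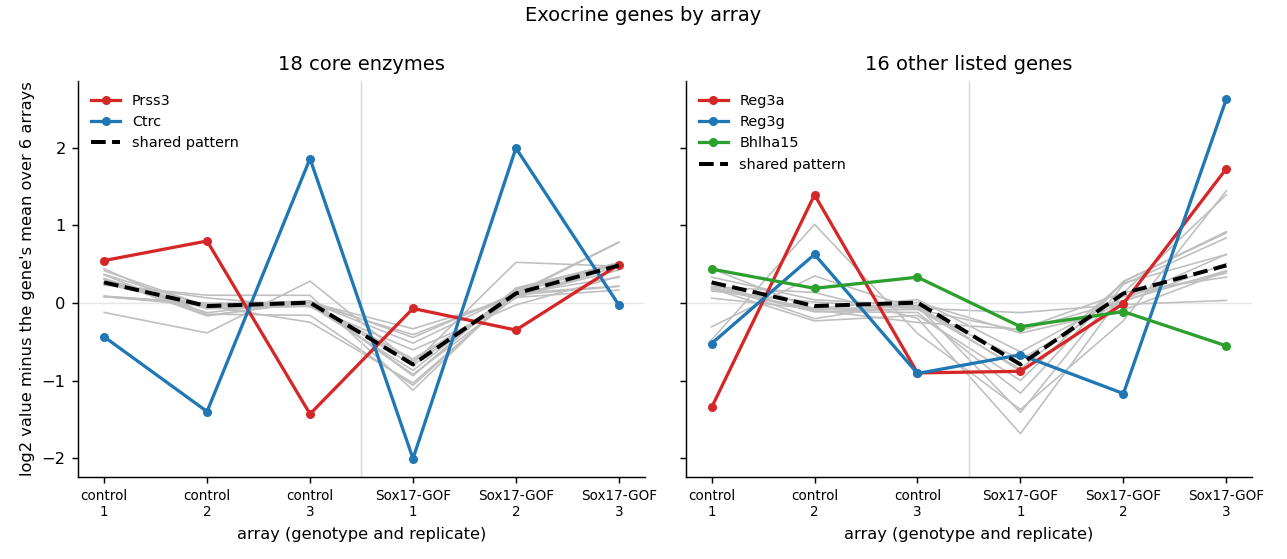
Log2 signal of each measured exocrine gene minus its own mean, on the 6 arrays, for the 18 core enzymes (left) and the 16 other listed genes (right). Lines only join the values of 1 gene, the dashed line is the shared pattern, and the coloured genes are those with a correlation under 0.5 with it; most grey lines dip at Sox17-GOF replicate 1 and peak at replicate 3.

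Likeness to the pattern was measured as Pearson's r over the 6 arrays, with the pattern made without the gene in question; since the genes share arrays and acinar RNA, r is a description. Over the 34 genes the median r was 0.98 (0.08 to 1.00), with 23 over 0.9 and 5 under 0.5. Among the core enzymes 15 of 18 were over 0.9. Cpa1, Try4, Try5, Cela2a, Ctrl, Pnliprp1, Pnliprp2, Cel and Pla2g1b (a carboxypeptidase, trypsinogens, an elastase, a chymotrypsin-like protease, lipase-related proteins, carboxyl ester lipase and phospholipase A2) all lay between 0.97 and 1.00. Amy1, the salivary and liver amylase gene, had an r of 0.96, with 9.54, 9.13 and 9.20 in controls and 8.36, 9.63 and 10.28 in Sox17-GOF. Granule proteins were as close: Gp2, the main glycoprotein of the granule membrane, had an r of 1.00, with 12.24, 11.72 and 11.76 in controls and 10.39, 12.04 and 12.64 in Sox17-GOF. Zg16 (a lectin of the granule) had 1.00, Spink1 (the trypsin inhibitor) 0.98 and Dmbt1 (a secreted scavenger receptor) 0.98. None of these granule genes differed between the genotypes, with adjusted p-values inside the range given above.

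Among the core enzymes, the brightest probe sets tended to swing less. The 4 core enzymes with a mean of 13 or more swung by 0.50 to 1.22 between their lowest and highest arrays (median 0.64). The 14 below 13 swung by 0.85 to 4.0 (median 1.43). The highest value of any probe set on any array was 14.22, so the brightest enzymes lay close to the top of the measured range, and the part of signal compression in their smaller swings was not tested. Pancreatic amylase, which breaks down starch, was measured by shared probe sets only. Of 3 probe sets shared by Amy2a2, Amy2b and Amy2a5, the brightest read 13.80 to 13.91 on all 6 arrays, while the dimmest read 13.35, 13.25 and 13.31 in controls and 13.03, 13.43 and 13.51 in Sox17-GOF, the order of the shared pattern at its extremes.

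**Figure D3:**
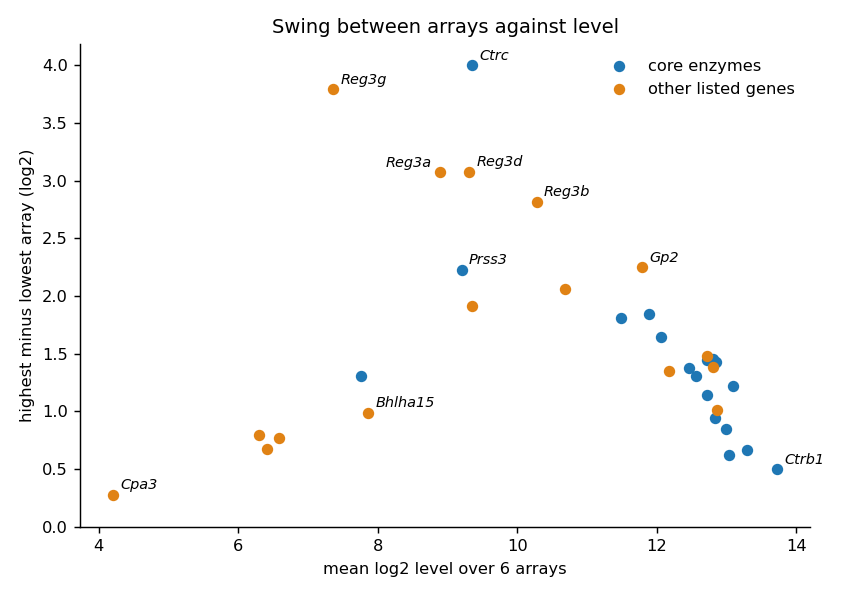
Highest minus lowest array (log2) against the mean log2 level over the 6 arrays for the 34 measured exocrine genes, core enzymes in blue and the others in orange. Ctrb1, at the bright end, swings by 0.50, Ctrc by 4.0, and Cpa3, at the dim end, by 0.28.

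Transcription factors of the acinar cell were measured at much dimmer probe sets, and 1 of 4 differed. Bhlha15 read 8.30, 8.05 and 8.20 in control replicates and 7.56, 7.75 and 7.31 in Sox17-GOF replicates. Every Sox17-GOF value lay below every control value, and the lowest was replicate 3, the array on which the enzymes were highest. The change was -0.64 on the log2 scale, a 1.56-fold decrease (SE 0.13; 95% interval from -0.93 to -0.35; adjusted p = 0.0312 by limma). Its r with the shared pattern was 0.08, the lowest of all 34 genes. With the mean log2 level of the core enzymes on each array as a covariate, the change was -0.65 (adjusted p = 0.0459 by limma). The call was lost on leaving out any of the controls (adjusted p = 0.116 without replicate 1, 0.0761 without replicate 2 and 0.0973 without replicate 3) or the first Sox17-GOF array (0.0695), with all 34760 probe sets tested (0.0791) and under the methods' t-test after Benjamini-Hochberg adjustment (0.177). At the unadjusted threshold and 1.3-fold cut that the methods used, that test called Bhlha15 and no other listed gene. The fold change stayed between -0.75 and -0.53 when any 1 array was left out.

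The other factors moved with the enzymes. Ptf1a, the DNA-binding subunit of PTF1, read 6.65, 6.51 and 6.5 in controls and 6.23, 6.62 and 7.0 in Sox17-GOF, with an r of 0.92. Rbpjl, its acinar partner, had an r of 0.87 and Nr5a2, a nuclear receptor of acinar cells, 0.89. None of these 3 passed the test. MIST1 is also made by plasma cells and other secretory cells. No list of plasma cell markers was examined. Of the 8 leukocyte and macrophage markers Ms4a1 changed most. It read 5.41, 6.03 and 4.52 in controls and 4.36, 4.22 and 4.31 in Sox17-GOF (adjusted p = 0.14 by limma). The others changed by -0.62 (Ptprc), -0.25 (Csf1r), -0.18 (Lyz2), -0.16 (Cd3e), 0.0001 (Itgam), 0.02 (Cd68) and 0.03 (Adgre1), and none passed the test. Ms4a1 encodes CD20 of B cells and is not a marker of plasma cells. Xbp1 (a secretory and unfolded-protein response factor) read 9.19, 9.15 and 9.02 against 8.97, 8.89 and 8.88 (adjusted p = 0.215 by limma). The part of such cells or of Xbp1 in the Bhlha15 change was not tested.

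The REG genes lie together on chromosome 6, in the order Reg3b, Reg3d, Reg3a, Reg2, Reg1 and, past a pseudogene, Reg3g, and they did not behave as 1 block. None of the 6 differed between the genotypes. Reg1 read 13.14, 12.85 and 12.78 in controls and 11.93, 12.83 and 13.32 in Sox17-GOF. It tracked the enzymes with an r of 0.99. Reg3d, a pancreatic member of the family, did so too (r = 0.96), with 9.52, 9.45 and 9.12 in controls and 7.63, 9.44 and 10.71 in Sox17-GOF.

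Reg2, Reg3a, Reg3b and Reg3g stood apart from those in control replicate 2. Reg2, a close relative of Reg1, read 12.42, 13.08 and 12.65 in controls and 11.88, 12.98 and 13.35 in Sox17-GOF (r = 0.79). Reg3b, the pancreatitis-associated protein, read 9.81, 11.30 and 9.89 against 8.91, 10.05 and 11.73 (r = 0.70). In both genes control replicate 2 was the highest control, whereas it was the lowest or nearly the lowest control for the 6 brightest enzymes. Reg3a read 7.54, 10.28 and 7.99 in controls and 8.01, 8.88 and 10.62 in Sox17-GOF (r = 0.40). Reg3g, a bactericidal lectin best known from the gut, read 6.84, 7.98 and 6.45 against 6.69, 6.19 and 9.99 (r = 0.48). Control replicate 2 and Sox17-GOF replicate 3 were the highest arrays of their groups for all 4 genes. Over the 6 arrays Reg3a correlated with Reg3b at 0.91 and with Reg3g at 0.82.

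Between the genotypes Reg3a differed by 0.57 (SE 0.83; 95% interval from -1.38 to 2.51; adjusted p = 0.782 by limma), and by 1.40 without control replicate 2 and -0.16 without Sox17-GOF replicate 3. Reg3g differed by 0.53 (95% interval from -1.63 to 2.7; adjusted p = 0.822 by limma), and by -0.65 without Sox17-GOF replicate 3. Neither gene passed the test, and both intervals are wide. Of 15 acute phase and STAT3 target genes, 10 of them above the 20th percentile of all values, 2 fell in Sox17-GOF islets (13.3%, beside the 2.32% of all named probe sets that were lower), none rose and 13 did not pass. Il6ra, a subunit of the interleukin-6 receptor, fell by 0.63 (adjusted p = 0.00822 by limma) and Fgb, a fibrinogen chain, by 0.52 (adjusted p = 0.0373 by limma). Of these 15 genes, 5 were, like Reg3a, highest of their groups in control replicate 2 and in Sox17-GOF replicate 3 (33.3%, beside 10.6% of all 19937 genes). They were Osmr (the oncostatin M receptor), Bcl3, Il22ra1, Saa3 and Il6, and their swings were smaller than those of the Reg3 genes: Osmr, for example, read 6.03, 6.44 and 6.01 in controls and 6.17, 6.33 and 6.58 in Sox17-GOF. The other 10, Socs3 among them, did not have both peaks. Dim genes were counted in both shares. Among the genes with both peaks, Saa3 and Il6 had means below the 20th percentile of all values, close to background. Which array was highest is therefore uncertain for Saa3 and Il6. The part of STAT3 signalling in the Reg3 values was not tested.

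**Figure D4:**
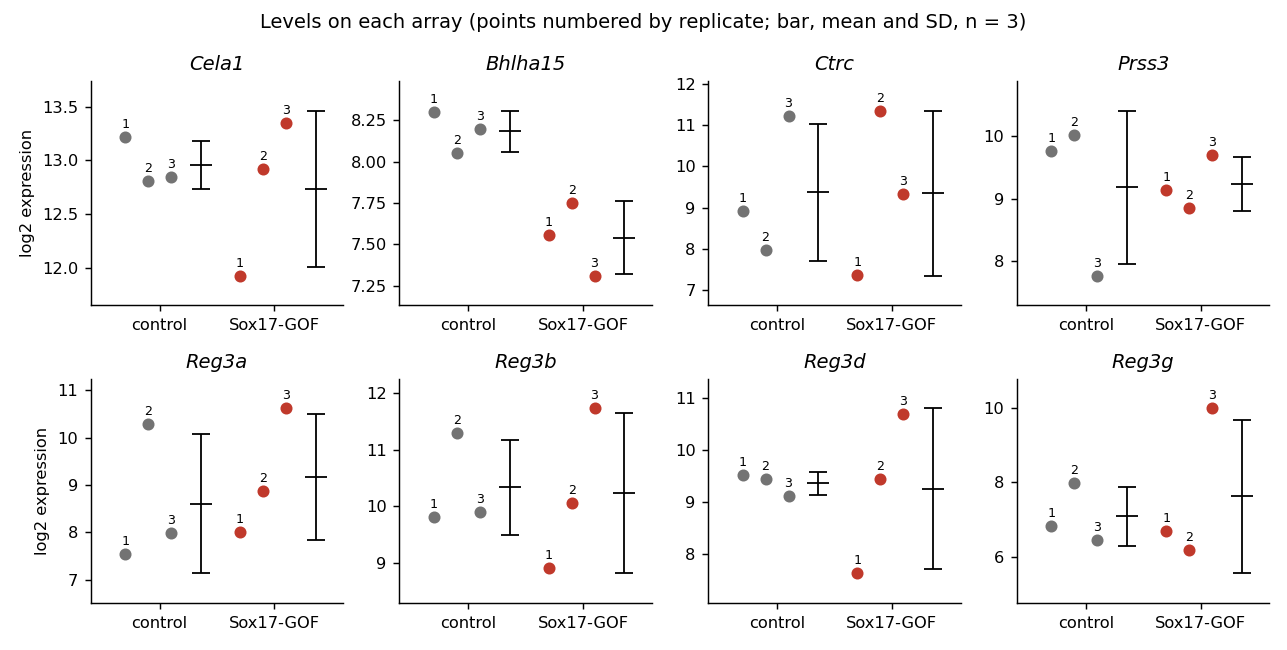
Log2 signal on each array for Cela1, Bhlha15, Ctrc, Prss3 and 4 Reg3 genes, grey for control and red for Sox17-GOF, with points numbered by replicate and the mean ± SD (n = 3) drawn beside them; each panel has its own axis, which does not start at 0. Cela1 and Reg3d fall at Sox17-GOF replicate 1, the other Reg3 genes peak in control replicate 2 and Sox17-GOF replicate 3, and Bhlha15 alone separates the groups.

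Markers of other cell types that an islet preparation can hold also varied between these arrays. The log2 summed signal of 8 leukocyte and macrophage markers was 9.99, 10.40 and 9.30 in controls and 9.47, 9.59 and 9.81 in Sox17-GOF. That of 8 stellate and fibroblast markers was 9.98, 10.21 and 9.45 against 9.84, 10.45 and 10.64, a sum in which Dcn and the other brighter markers weigh most. Counted by gene, 3 of the 8 leukocyte markers (Adgre1, Cd68 and Lyz2) were highest of their groups in control replicate 2 and in Sox17-GOF replicate 3. So were 3 of the 8 stellate markers (Col3a1, Dcn and Lum). Each share was 37.5%, beside 33.3% of the acute phase and STAT3 target genes (the dim Saa3 and Il6 included) and 10.6% of all 19937 genes. The median of the gene-centred stellate signals did not peak in control replicate 2, at -0.07, -0.12 and -0.16 in controls. The same median of the leukocyte signals was nearly level in control replicates 1 and 2, at 0.20, 0.21 and -0.26 in controls. Single markers moved further: Dcn, a matrix proteoglycan of fibroblasts, ran from 6.31 in control replicate 3 to 9.46 in Sox17-GOF replicate 3. Krt19, a duct keratin, read 6.53, 6.30 and 6.16 in controls and 6.74, 7.07 and 9.13 in Sox17-GOF. Of the 8 duct markers, 6 were highest of the Sox17-GOF group in replicate 3, beside 6509 of all 19937 genes. Krt7, another duct keratin, went the other way, with 10.54, 10.58 and 10.62 in controls and 10.26, 10.36 and 10.08 in Sox17-GOF. The part of these cells in the Reg3 values was not tested.

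Over the 6 lists of other cell types and islet endocrine genes, 4 of 45 genes differed between the genotypes (8.89%, beside 4.93% of all named probe sets). None of the 8 leukocyte and 8 stellate markers passed the test. Of 8 duct markers 1 rose and 7 did not pass. The gene that rose was Car2, a carbonic anhydrase of duct cells and of other cell types, which went up by 2.31 (adjusted p = 0.000327 by limma) from between 5.45 and 5.55 in controls to between 7.48 and 8.05. Of 7 mast cell markers only Kit, a receptor of several cell types, rose (1.31; adjusted p = 0.00253 by limma). Of 7 endothelial markers only Kdr, a VEGF receptor, fell (-0.68; adjusted p = 0.0160 by limma), and of 7 islet endocrine genes only Pdx1, with a change of -0.47 (adjusted p = 0.0327 by limma). None of the 13 further acinar genes passed.

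Both core enzymes that left the shared pattern did so with large swings. Ctrc (chymotrypsin C) read 8.93, 7.96 and 11.22 in controls and 7.36, 11.35 and 9.33 in Sox17-GOF, a range of 4.0, with an r of 0.48. It was high in control replicate 3 and Sox17-GOF replicate 2, neither of which stood out for most of the other enzymes. Its neighbour on chromosome 4, Cela2a, read 13.08, 12.56 and 12.73 against 11.79, 12.91 and 13.23, with an r of 0.99. RefSeq on GRCm38.p6, the C57BL/6J assembly, lists Ctrc as a transcribed pseudogene, the only one among the 34 genes, of which the other 33 are protein-coding. Cela3a, another elastase gene, leaned the same way, with 7.65, 7.38 and 8.05 in controls and 6.99, 8.29 and 8.24 in Sox17-GOF, an r of 0.79 with the pattern and of 0.87 with Ctrc. The genotypes differed by -0.02 for Ctrc, with a 95% interval from -2.57 to 2.53.

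Prss3 (a trypsinogen) read 9.75, 10.00 and 7.78 in controls and 9.13, 8.86 and 9.70 in Sox17-GOF. Its low array was control replicate 3, and its r with the pattern was 0.19. Trypsinogen genes are near-identical copies, so the reading of a single probe set is uncertain. A probe set shared by Prss1, Prss3, Gm5771 and Gm10334 dipped on the same array, with 10.35, 10.51 and 9.37 in controls and 9.81, 9.98 and 10.42 in Sox17-GOF. Another shared by the same genes followed the enzymes, with 12.94, 12.74 and 12.71 against 12.11, 12.93 and 12.92. Between the genotypes Prss3 differed by 0.05, with a 95% interval from -1.22 to 1.33, and by -0.65 without control replicate 3.

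The remaining listed genes were few. Cpa3, the carboxypeptidase of mast cells, was the only measured gene below the 20th percentile of all values (4.63), at 4.09 to 4.37 on the 6 arrays. Prss1 and Amy2b were found only on the shared probe sets described above. Pnlip, Klk1 and the symbol Syncn had no matching probe set in the annotation used here. Syncollin under its current symbol Sycn, which was looked up after the list was made, read 12.89, 12.33 and 12.42 in controls and 11.82, 12.53 and 13.11 in Sox17-GOF, with an r of 0.96.

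Outside the list, genes with the same array pattern were looked for among the 1044 genes that swung by at least 1 on the log2 scale. Of these, 18 (1.72%) had an r over 0.9. The 5 with the highest were Serpini2 (0.99), Klk1b11 (0.99), Klk1b5 (0.99), Hsd17b13 (0.99) and Tmed11 (0.98), each over 6 arrays. Serpini2, a pancreatic serpin, read 11.38, 10.62 and 10.55 in controls and 9.11, 10.80 and 11.67 in Sox17-GOF. Klk1b11 and Klk1b5 are glandular kallikrein genes, and Klk1b5 read 10.30, 9.71 and 9.83 against 8.25, 9.85 and 10.99. Tmed11, a cargo receptor gene of the early secretory pathway, had the widest swing of these 5, from 6.70 in Sox17-GOF replicate 1 to 10.20 in replicate 3. Of 13 further acinar genes taken as a list, 12 had an r from 0.78 to 0.99, among them Cuzd1 (0.97), Rnase1 (0.99) and Tff2 (0.98), and Xbp1 alone lay near 0 (-0.01).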

How the data were processed

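Total RNA of isolated islets from 3 control and 3 Sox17-GOF samples was amplified, labelled and hybridised to Mouse Gene ST arrays (Affymetrix). The values deposited are on the log2 scale after the authors' RMA, that is, background correction, quantile normalization over arrays and a summary per probe set. GeneSpring is named for RMA in the methods, and Affymetrix Expression Console in the submitters' processing notes. All arrays were used as deposited. A signal around 4.63, the 20th percentile, is close to background, and precision is limited by having 3 arrays a group.

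Of 34760 probe sets, 21640 carried 1 symbol, 1321 several and 11799 none. limma 3.58.1 (R 4.3.3; lmFit, then eBayes with no trend) was used to compare the genotypes, with Benjamini-Hochberg adjustment over the 22961 named probe sets and a threshold of 0.05; the code was tested on simulated data. The genes and lists were chosen with earlier results of these data known. Genes given on every array are the 6 brightest core enzymes, the REG genes, listed genes past the threshold and those whose r with the shared pattern was under 0.5 at a mean above 4.63; further genes given on every array, and those described as looked up, were chosen after their values were seen. Outside the list, Sox17, the 5 genes most like the pattern and changed members of the other lists are named. Alternatives were other normalizations, filters, array weights, a trend, a replicate block, the methods' t-test, an acinar covariate and leaving out each array. p-values measure the spread between biological replicates as labelled.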

Additional observations from a re-analysis of the deposited data

How the results depend on the processing

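Every alternative was fitted. Across them, 41 of the values that answer a comparison stayed the same, 14 moved and 1 no longer passed. The count of named probe sets that differed, 1133, was 558 with all probe sets tested, 720 with the replicate number as a block and 71 by the methods' t-test after Benjamini-Hochberg adjustment, and ranged from 385 to 1020 when 1 array was left out (472 without control replicate 1, 385 without control replicate 2, 521 without control replicate 3 and 651 without Sox17-GOF replicate 2). The count of listed genes, 1, was 0 with all probe sets tested, with the replicate block and by the adjusted t-test, where Bhlha15 still had an unadjusted p under 0.05, and ranged from 0 to 1 when 1 array was left out. At the methods' own threshold, an unadjusted p under 0.05 with a 1.3-fold cut, the same t-test called 1623 named probe sets and 1 listed gene, a setting added after seeing the data. The adjusted p of Bhlha15 under the block was 0.0731; same-numbered samples share only a number, since nothing in the labels pairs them and their deviations correlated at 0.05, -0.02 and -0.04. Sox17 kept its difference of 0.67 but missed the threshold in that t-test (adjusted p = 0.0906). In the shared pattern Sox17-GOF replicate 3 stayed above replicate 1, by 1.22 with the mean over the core enzymes and by 1.18 with each array centred on its median. Keeping only core enzymes above the 20th percentile left all 18 in, so that setting could not change the value.

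Over the values of single genes, 199 stayed the same, 26 changed sign and 7, all for Bhlha15, no longer passed. Each gene that changed sign had not passed the threshold. With array weights Prss3 was at -0.16 and Ctrc at 0.56. After quantile normalization Ctrc was at 0.0344 and Reg2 at -0.0027. With the mean log2 level of the core enzymes as a covariate, Reg3b was at 0.0524 and Reg3d at 0.11. Leaving out 1 array moved Cela1 between -0.53 and 0.18, Cela3b between -0.41 and 0.20, Clps between -0.18 and 0.13, Cpb1 between -0.19 and 0.14, Ctrb1 between -0.16 and 0.0912, Prss2 between -0.22 and 0.21, Ctrc between -1.02 and 0.98, Prss3 between -0.65 and 0.47, Reg1 between -0.54 and 0.15, Reg2 between -0.29 and 0.45, Reg3a between -0.16 and 1.40, Reg3b between -0.85 and 0.56, Reg3d between -0.83 and 0.71 and Reg3g between -0.65 and 1.25. For the 6 brightest enzymes and Reg1 the sign turned without Sox17-GOF replicate 1. The causes were not tested.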

Other observations

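For each listed gene that left the shared pattern, the most similar genes outside the list were looked up among 1012 genes that swung by at least 1 and had a mean above the 20th percentile, by Pearson's r over the 6 arrays. These were chosen after their values were seen and are given as values. Bhlha15 was closest to Best3 (r = 1.00), a bestrophin family member, Ffar3 (0.99), a short-chain fatty acid receptor, and Sstr3 (0.98), a somatostatin receptor. Best3 read 6.74, 6.47 and 6.67 in controls and 6.00, 6.17 and 5.72 in Sox17-GOF, so the order of the 6 arrays was that of Bhlha15. Ffar3 read 7.89, 7.64 and 7.63 against 7.0, 7.24 and 6.73, and Sstr3 read 8.65, 8.39 and 8.58 against 7.90, 7.90 and 7.59. In Best3, Ffar3 and Sstr3, as in Bhlha15, every Sox17-GOF value lay below every control value. These r values therefore include the difference between the genotypes.

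Reg3g was closest to Plac8 (r = 0.99), which read 6.46, 7.65 and 5.89 in controls and 6.87, 5.83 and 10.61 in Sox17-GOF, and to Trim31 (0.97) and Syne2 (0.95). Reg3a was closest to Mir677 (0.98) and Ifi27l2a (0.90), an interferon-induced gene at 6.82, 8.16 and 7.41 in controls and 6.82, 7.24 and 9.46 in Sox17-GOF. Plac8 and Ifi27l2a, like Reg3a, Reg3b and Reg3g, were highest in Sox17-GOF replicate 3 and next highest in control replicate 2.

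Prss3 was closest to Cwc22 (r = 0.97), a splicing factor gene, which read 10.47, 10.59 and 8.93 in controls and 9.94, 10.15 and 10.52 in Sox17-GOF. Both were lowest in control replicate 3. The closest to Ctrc was Pithd1 (0.85), at 7.29, 7.05 and 7.63 in controls and 7.21, 8.13 and 7.19 in Sox17-GOF. Prss3 and Ctrc themselves ran opposite to each other (r = -0.68), with control replicate 3 low for Prss3 and high for Ctrc.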
